A study of Homo sapiens with 8 samples.

Results

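The insulin-like growth factor (IGF) family was followed through 9 genes of the deposited factory RNA-Seq count tables: the ligands IGF1 and IGF2, the receptor IGF1R and the 6 binding proteins IGFBP2 to IGFBP7. They were picked by gene symbol out of 28265 counted genes. The cells were IMR90, a line of human fetal lung fibroblasts, and each of the 4 conditions had 2 libraries. Control cells, labelled young, were low-passage cells, and the labels do not say whether they received the solvent of the drug. The other conditions were low-passage cells given inflachromene (ICM), a small molecule that binds the chromatin proteins HMGB1 and HMGB2, for 3 or 6 days, and low-passage cells labelled MetaICM, a name that neither the labels nor the study's text explains. Neither the dose nor the duration of MetaICM is given in the labels.

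Factory RNA-Seq enriches the nascent RNA that stays attached to sites of active transcription. The labels, however, describe poly(A) selection of total RNA, and the deposited values are read pairs on exons, so a level here is that of exonic RNA in the library and not a rate of transcription. The 8 libraries held between 12095123 and 23166405 counted pairs. Each library was closest to the other one of its condition, and the control pair was the least alike (Pearson r of 0.984 over genes, against 0.990 to 0.993 in the other conditions). The labels do not say that the libraries of a condition came from separate cultures, so p-values measure the spread between these libraries, which may be technical.

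The fibroblast label was checked on 20 marker genes. Of 10 fibroblast markers, 9 were over 10 CPM, the count of a gene scaled to the size of the library, in every library, and all 4 epithelial markers (EPCAM, CDH1, KRT5 and SFTPC) were under 1 CPM in every library. The endothelial markers PECAM1 and CDH5 were also under 1 CPM throughout, whereas VWF lay between 1.43 and 4.89 CPM. The summed fibroblast markers were at 23153 and 23316 CPM in the control libraries, at 12917 and 14294 after 3 days of ICM, at 10966 and 11335 after 6 days, and at 20334 and 21230 in MetaICM. Most of each sum came from the collagen genes. COL1A1 was at 8085 and 8812 CPM in control and at 1890 and 1876 after 6 days. COL3A1 was at 3198 and 2995 CPM in control and at 3013 and 2869 after 6 days. The sums were lower in both ICM conditions, as IGF1R was, and their part in the results was not tested. The 3 immune markers summed to between 4.97 and 6.37 CPM in control and to between 14.1 and 22.0 in the other conditions, mostly from CD68, a lysosomal protein. In bulk libraries such as these, fewer cells of a kind and less RNA per cell cannot be told apart.

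IGF1 and IGF2 are secreted peptides that bind IGF1R, a receptor tyrosine kinase which signals through the adaptors IRS1 and IRS2 to PI3K, AKT and mTOR and drives growth and survival. In the extracellular space most IGF is held by binding proteins, which keep the ligand from its receptor and release it when proteases such as PAPPA cut them. Fibroblasts secrete several binding proteins, and IGFBP3, IGFBP5 and IGFBP7 are known among the factors that senescent fibroblasts release.

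These cells made RNA for the receptor and the binding proteins but very little for the ligands. Levels are given as CPM after TMM scaling across the 8 libraries, and levels of different genes are compared only per kilobase of exon. IGFBP5 stood highest of the family at 2568 CPM per kilobase averaged over the libraries, followed by IGFBP4 with 145.8, IGFBP7 with 73.3, IGFBP3 with 47.3, IGFBP6 with 29.7, IGF1R with 11.8 and IGFBP2 with 10.8. IGF1 averaged 0.0707 and IGF2 0.0311 CPM per kilobase. Over the bases where pairs could be counted, IGF2 was at 0.123 CPM per kilobase, above IGF1, so the order of the ligands depends on the length used. By count, IGFBP5 ranked between the 2nd and the 7th most abundant gene of all genes in every library.

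**Figure D1:**
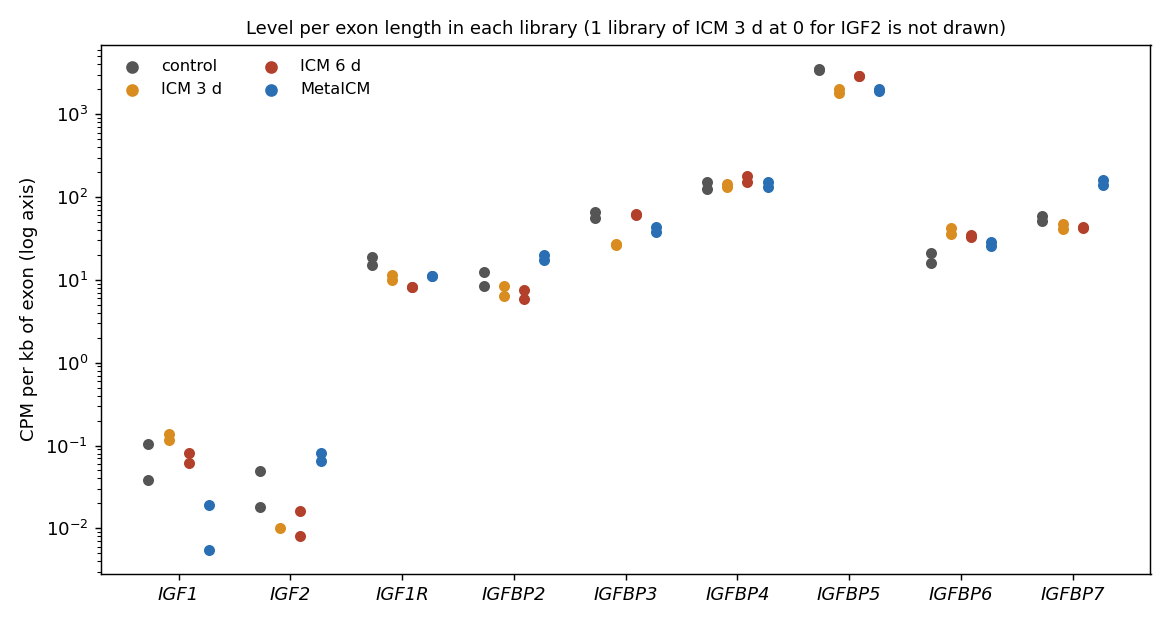
Level of each gene in CPM per kilobase of exon (log axis) in the single libraries, with 1 point per library coloured by condition; 1 library at 0 for IGF2 is not drawn. IGFBP5 lies far above the other 8 genes in every library, and both ligands lie below all the others.

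A gene was taken as called when its edgeR quasi-likelihood test gave a Benjamini-Hochberg adjusted p under 0.05 over all genes tested and an absolute log2 fold change (log2FC) over 0.6. Under the filter on low counts used here, IGF2 had too few counts to be tested in any comparison. The same held for IGF1 in MetaICM against control and against 6 days of ICM. After 3 days of ICM, 8 of the 9 genes were tested. Of these, 3 were lower than in control (IGF1R, IGFBP3 and IGFBP5), beside 13.2% of the 15692 genes tested, and 1 was higher (IGFBP6), beside 8.85%. With library totals in place of TMM, the split of all calls moved from 1389 higher and 2067 lower genes to 1785 and 1767. After 6 days, 2 of 8 were lower (IGF1R and IGFBP2), beside 17.2% of 15950 genes, and 1 was higher (IGFBP6), beside 13.3%. In MetaICM, 2 of 7 were lower (IGF1R and IGFBP5), beside 8.99% of 15904 genes, and 2 were higher (IGFBP2 and IGFBP7), beside 7.41%.

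The median log2FC of the tested genes against control was -0.41 after 3 days, -0.13 after 6 days and 0.04 in MetaICM, while that of all genes tested was between -0.0013 and 0.0094. With so few genes, these counts do not set the family apart from the rest of the tested genes. The 3 comparisons share the control libraries, so their values are given side by side.

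**Figure D2:**
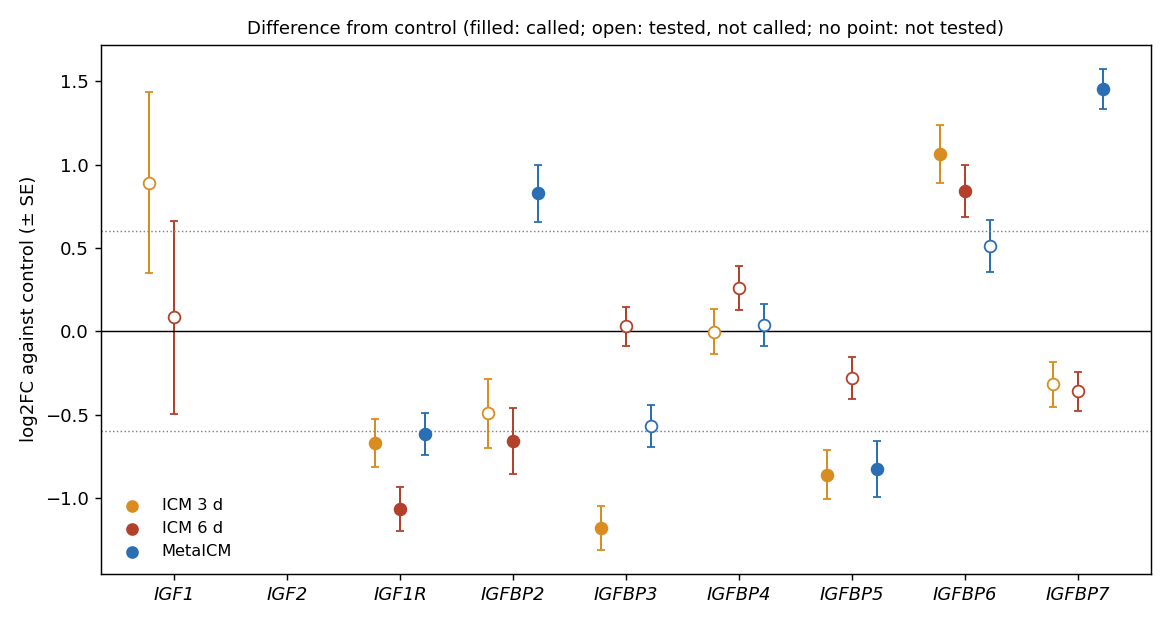
log2FC of each gene against control with its standard error, after 3 days of ICM, after 6 days of ICM and in MetaICM; filled points were called, open points were tested and not called, and the dotted lines mark the log2FC cutoff of 0.6. IGF1R is below zero and IGFBP6 above it in all 3 conditions, whereas IGFBP2 and IGFBP7 are above zero in MetaICM alone.

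The ligand IGF1, the main mediator of growth hormone action, lies on the minus strand of chromosome 12 (hg19, chr12:102789652-102874341). Control held 5 and 10 counts of it, the 3-day libraries 20 and 16, the 6-day libraries 9 and 12, and MetaICM 3 and 1. In CPM, the 3-day libraries were the highest and the MetaICM libraries the lowest, and neither overlapped with control. The 6-day libraries, at 0.48 and 0.64 CPM, lay within the control range of 0.30 to 0.83 CPM.

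The log2FC of IGF1 against control was 0.89 ± 0.54 (SE) after 3 days and 0.08 ± 0.58 after 6 days, with adjusted p of 0.243 and 0.923, so neither differed beyond the spread of the libraries. Summed over libraries, the ratio of control to MetaICM was 5.61 with an exact 95% binomial interval from 1.79 to 23.2, based on 15 and 4 counts. The ratio of 6 days to MetaICM was 6.06 (2.05 to 24.3), on 21 and 4 counts. These intervals cover counting error only, not the spread between libraries.

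IGF1 passed the filter on low counts in MetaICM against 3 days only through the 3-day libraries and therefore had to differ there. The fitted log2FC was -3.33 ± 0.62 with an adjusted p of 0.00063. It was not tested under a filter of 10 counts in every library, nor after thinning all libraries to the smallest total. Summed counts of 36 and 4 gave a ratio of 3 days to MetaICM of 10.6 (3.81 to 41.1, counting error only).

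IGF2, an imprinted growth factor of the fetus, lies at chr11:2150342-2170833 on the minus strand. Of its 6654 exon bases, 4968 are shared with other genes, 4881 of them with the read-through gene INS-IGF2 and 329 with the antisense gene IGF2-AS. Pairs on shared bases were not counted, which leaves 1686 bases, and INS-IGF2 itself had no count in any library. The counts of IGF2 are therefore a low estimate of its RNA.

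IGF2 had 2 and 4 counts in control, 0 and 1 after 3 days of ICM, 2 and 1 after 6 days, and 11 and 10 in MetaICM. Both MetaICM libraries were above all 6 others. The ratio of MetaICM to control in summed counts was 2.34, and its interval from 0.913 to 7.08 includes a ratio of 1. Against 6 days the ratio was 6.06 (1.81 to 31.7, on 21 and 3 counts), and against 3 days it was 17.8 (2.86 to 735, on 21 and 1 counts). These intervals, too, cover counting error only, not the spread between libraries, and they are no test of a difference.

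IGF2-AS, transcribed from the opposite strand, was also highest in MetaICM, with 10 and 10 counts. It had 0 and 1 counts in control, 0 and 0 after 3 days, and 1 and 2 after 6 days, too few to put these conditions in order. The summed ratio of MetaICM to control was 13.4 (2.14 to 554, on 20 and 1 counts, counting error only). The pairs were counted on both strands together, so RNA of the gene and of its antisense partner cannot be told apart. H19, the nearest gene on the left, had at most 3 counts in any library.

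The receptor IGF1R spans chr15:99191768-99507759 on the plus strand with 12235 exon bases. Its level was 185 and 232 CPM in control, 122 and 142 after 3 days of ICM, 99.2 and 100.5 after 6 days, and 137 and 136 in MetaICM. Both control libraries were above all 6 others, and the 6-day libraries were the lowest.

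IGF1R fell by 0.67 ± 0.14 on the log2 scale after 3 days (adjusted p of 0.0043) and by 1.07 ± 0.13 after 6 days (adjusted p of 0.00011), which corresponds to levels 1.59-fold and 2.10-fold lower than in control. In MetaICM it fell by 0.62 ± 0.12 (adjusted p of 0.0064). From 3 to 6 days the log2FC was -0.40 ± 0.09 with an adjusted p of 0.0054, under the cutoff of 0.6, and the libraries did not overlap. MetaICM and 3 days did not differ beyond their spread (log2FC of 0.06 ± 0.09).

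The 6-day call of IGF1R held in every alternative and without each single library (log2FC from -1.23 to -0.89). The others sat near the cutoff. At 3 days the log2FC was -0.52 without control replicate 2, and the call was also lost with library totals (-0.60) and without the first 3-day library. In MetaICM it was -0.44 without control replicate 2, and the call was also lost without either MetaICM library, with library totals or with all genes kept.

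IRAIN, an antisense RNA within IGF1R whose exon covers 1137 of its exon bases, had between 30 and 80 counts per library. Its mean level was 3.04 CPM in control, 2.03 after 3 days, 1.63 after 6 days and 3.45 in MetaICM. It was called lower than in control after 6 days (log2FC of -0.89 ± 0.28, adjusted p of 0.028) and was not called in the other comparisons with control. At 6 days both genes were thus lower, at levels that differ by far, whereas in MetaICM the log2FC of IRAIN was 0.18 ± 0.24. Pairs were counted on both strands together, so counts of IRAIN cannot be told apart from RNA of IGF1R transcribed across it.

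**Figure D3:**
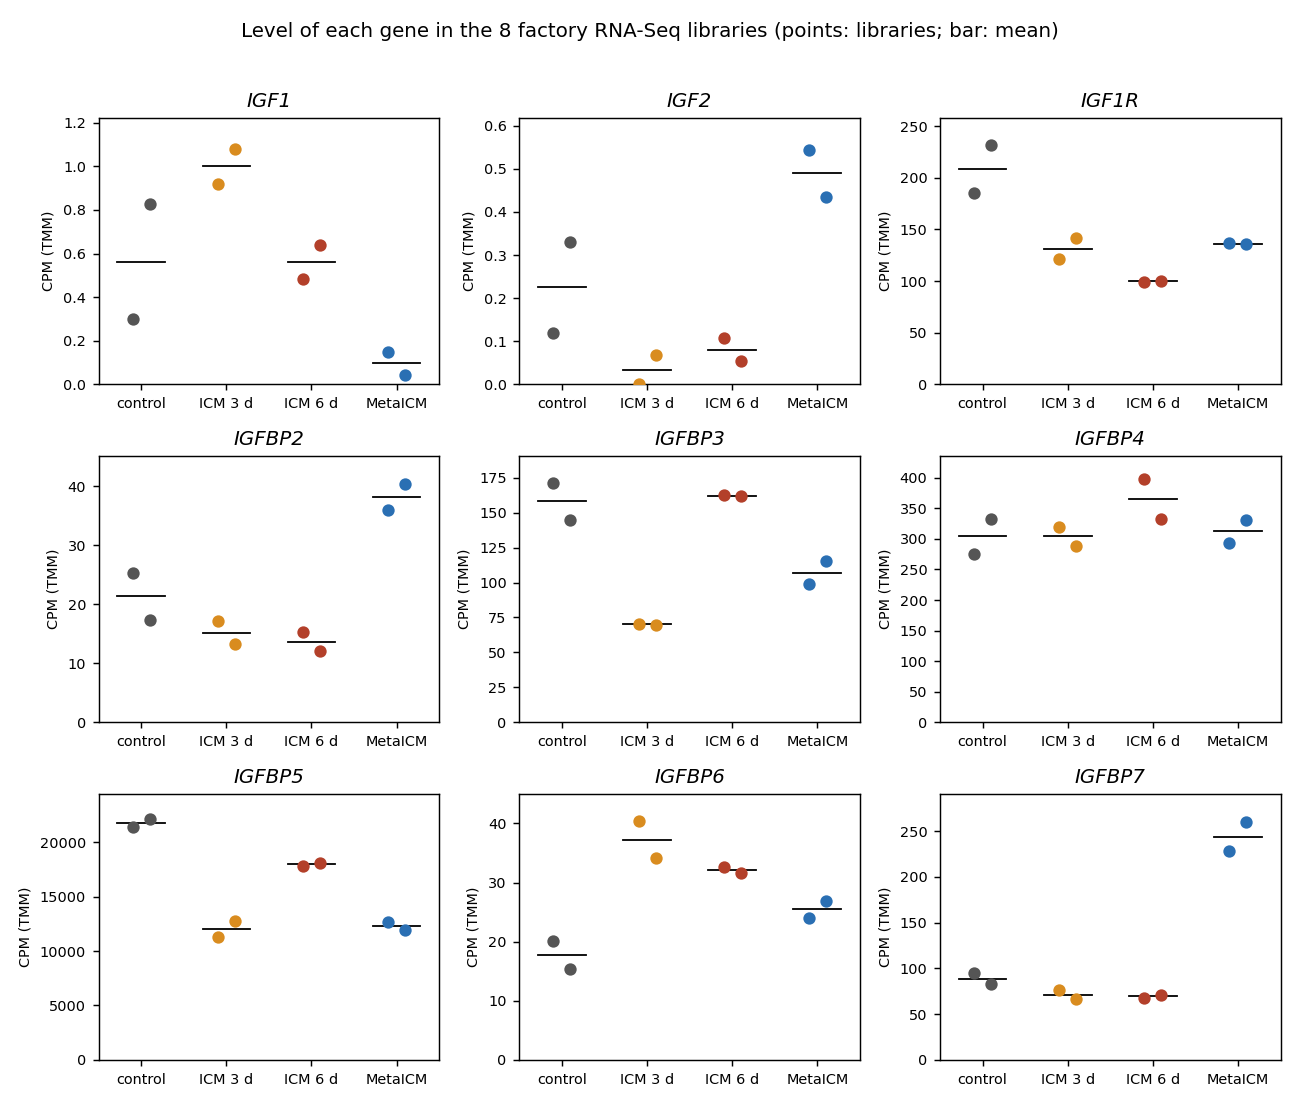
Level of each of the 9 genes in CPM (TMM scaled, linear axes from 0) in the 4 conditions, with 1 point per library and a bar at the mean. IGFBP3 is lowest after 3 days of ICM and back in the control range after 6 days, and IGFBP7 is above 228 CPM in both MetaICM libraries and under 95 CPM in all the others.

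IGFBP3, the main carrier of IGF in blood, was the binding protein with the clearest difference between 3 and 6 days. It lies at chr7:45951844-45960871 on the minus strand, 18585 bases from IGFBP1. Its level was 172 and 145 CPM in control, 70.4 and 69.8 after 3 days, 163 and 162 after 6 days, and 98.9 and 115 in MetaICM. The 3-day libraries were the lowest of all 8, the 6-day libraries lay between the control libraries, and the MetaICM libraries lay between those of 3 days and control.

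After 3 days IGFBP3 fell by 1.18 ± 0.13 on the log2 scale (2.27-fold, adjusted p of 3.1e-05), and after 6 days its log2FC against control was 0.03 ± 0.12. The direct comparison of 6 with 3 days gave a log2FC of 1.21 ± 0.09 with an adjusted p of 1.8e-08. Only 2.71% of the genes tested in that comparison had an absolute log2FC at least as large. Both calls held in every alternative and without each single library, from -1.31 to -1.05 at 3 days and from 1.18 to 1.22 between the days.

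In MetaICM the log2FC of IGFBP3 against control was -0.57 ± 0.12 with an adjusted p of 0.0090, short of the cutoff, and it was called without control replicate 2 (-0.68) or without MetaICM replicate 2. Against 3 days IGFBP3 was called higher in MetaICM, at 0.62 ± 0.09. That call was lost without MetaICM replicate 2 (0.50), and with library totals, upper-quartile factors or thinned counts. Against 6 days the log2FC was -0.598 ± 0.08, at the edge of the cutoff. IGFBP1, the neighbour of IGFBP3 and a binding protein of the liver, had 4 counts in 1 control library and 1 or none in each of the others.

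IGFBP5, which binds to extracellular matrix as well as to IGF, lies at chr2:217536828-217560272 on the minus strand. Its level was 21424 and 22116 CPM in control, 11324 and 12730 after 3 days, 17828 and 18130 after 6 days, and 12713 and 11913 in MetaICM. Control was highest in both libraries, the 6-day libraries came next, and those of 3 days and MetaICM overlapped.

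After 3 days IGFBP5 fell by 0.86 ± 0.15 on the log2 scale (1.82-fold, adjusted p of 0.00091), and in MetaICM by 0.83 ± 0.17 (1.77-fold, adjusted p of 0.0065). Both calls held in every alternative and without each single library. The log2FC after 6 days was -0.28 ± 0.12 with an adjusted p of 0.095. From 3 to 6 days the log2FC was 0.58 ± 0.09 with an adjusted p of 0.00018, just under the cutoff, and it was called higher without ICM 3 days replicate 2 (0.65) or without ICM 6 days replicate 1.

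IGFBP5 made up between 1.16% and 2.21% of all counted pairs of a library. IGFBP3 and IGFBP5 had the same order of conditions between 3 and 6 days, although IGFBP3 returned to the control range and IGFBP5 stayed below both control libraries. Over the 8 libraries Pearson's r of their log2 levels was 0.843 (Spearman's rho of 0.667), a description over 8 points that share 4 conditions.

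IGFBP6, a binding protein that prefers IGF2, was the one gene of the family called higher after both 3 and 6 days. It lies at chr12:53491451-53496124 on the plus strand. Its level was 20.2 and 15.3 CPM in control, 40.4 and 34.1 after 3 days, 32.6 and 31.5 after 6 days, and 24.1 and 26.9 in MetaICM. Both control libraries were below the other 6, and no pair of conditions overlapped.

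The log2FC of IGFBP6 against control was 1.06 ± 0.17 after 3 days (2.09-fold, adjusted p of 0.00068) and 0.84 ± 0.16 after 6 days (1.79-fold, adjusted p of 0.0016), and both calls held in every alternative and without each single library. In MetaICM the log2FC was 0.51 ± 0.16 with an adjusted p of 0.036, short of the cutoff, and 0.74 and called without control replicate 1. From 3 to 6 days the log2FC was -0.23 ± 0.11 with an adjusted p of 0.18.

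The 4 genes called after 3 days of ICM, 3 lower and 1 higher, have their annotated starts in the RefSeq promoter table (GRCh38.p14), and the 250 bases before each start are printed to show what letters these starts share. Letters are 5′ to 3′ on the strand of the gene, and capitals mark matches on either strand to the TATA box (TATAAA), the GC box (GGGCGG), the CCAAT box (CCAAT) or the E-box (CACGTG).
IGF1R: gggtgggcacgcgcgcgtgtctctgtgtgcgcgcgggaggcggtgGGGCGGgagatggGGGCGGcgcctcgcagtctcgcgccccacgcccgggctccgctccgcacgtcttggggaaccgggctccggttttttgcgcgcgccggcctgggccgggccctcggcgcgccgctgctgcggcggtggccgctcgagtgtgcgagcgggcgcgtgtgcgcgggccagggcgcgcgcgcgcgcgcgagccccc
IGFBP3: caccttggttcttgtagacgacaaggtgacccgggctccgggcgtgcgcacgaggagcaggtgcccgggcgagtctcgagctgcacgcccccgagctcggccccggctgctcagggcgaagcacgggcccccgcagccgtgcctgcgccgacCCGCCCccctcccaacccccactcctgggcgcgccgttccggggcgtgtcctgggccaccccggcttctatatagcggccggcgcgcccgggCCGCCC
IGFBP5: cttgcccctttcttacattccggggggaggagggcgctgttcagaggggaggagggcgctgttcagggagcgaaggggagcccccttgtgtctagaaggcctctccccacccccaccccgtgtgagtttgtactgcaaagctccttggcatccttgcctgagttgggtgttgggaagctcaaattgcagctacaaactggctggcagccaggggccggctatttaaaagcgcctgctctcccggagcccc
IGFBP6: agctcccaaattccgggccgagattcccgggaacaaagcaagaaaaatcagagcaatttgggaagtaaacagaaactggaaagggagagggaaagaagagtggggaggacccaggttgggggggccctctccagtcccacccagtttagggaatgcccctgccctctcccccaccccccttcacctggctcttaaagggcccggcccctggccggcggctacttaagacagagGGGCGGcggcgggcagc

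These windows lie at chr15:98648289-98648538 on the plus strand for IGF1R, chr7:45921273-45921522 on the minus strand for IGFBP3, chr2:216695550-216695799 on the minus strand for IGFBP5 and chr12:53097417-53097666 on the plus strand for IGFBP6. GGGCGG or its complement was found at 2 places for IGF1R, 2 for IGFBP3 and 1 for IGFBP6, and 42.6% of the 35116 promoter windows of the table hold it. TATAAA (10.7% of windows), CCAAT (32%) and CACGTG (6.34%) were not found in any of the 4. The window of IGFBP5 held none of the motifs searched, which says only that these letters are not there.

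The 3 genes that were lower together did not share a base composition. The window of IGF1R had 81.2% G and C and 48 CpG, and that of IGFBP3 76% and 32 CpG, above the medians of 58% and 11 CpG over all windows. The windows of IGFBP5 and IGFBP6 both had 61.2%, with 8 and 9 CpG, although the genes moved in opposite directions. Of the other genes, IGFBP4 has a window with TATAAA 29 bases and GGGCGG 83 bases before its start. In all, 7 of the 9 genes had an entry, and IGF2 and IGFBP7 had none.

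IGFBP7, a secreted protein with low affinity for IGF that is also linked to growth arrest, had the largest difference from control among the genes of the family that were tested, in MetaICM. It lies at chr4:57896939-57976551 on the minus strand. Its level was 94.6 and 83.0 CPM in control, 75.9 and 66.7 after 3 days, 68.2 and 70.7 after 6 days, and 228 and 260 in MetaICM. Both MetaICM libraries were above all the others, and the 3-day and 6-day libraries overlapped below control.

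The log2FC of IGFBP7 in MetaICM was 1.45 ± 0.12 against control (2.74-fold, adjusted p of 7.2e-05), 1.81 ± 0.08 against 6 days and 1.78 ± 0.10 against 3 days. All these calls held in every alternative and without each single library, from 1.37 to 1.57 against control. After 3 and 6 days of ICM the log2FC against control was -0.32 ± 0.14 and -0.36 ± 0.12, with adjusted p of 0.099 and 0.030, both short of the cutoff. Of 1615 exon bases, 264 are shared with POLR2B and 94 with IGFBP7-AS1 on the opposite strand, and pairs there were not counted. POLR2B, a subunit of RNA polymerase II, had a log2FC of -0.08 ± 0.11 in MetaICM against control, and IGFBP7-AS1 of 0.23 ± 0.31, so neither differed beyond its spread in that comparison. IGFBP7-AS1 was called lower after 6 days than in control (log2FC of -1.56 ± 0.40, adjusted p of 0.010) and higher in MetaICM than after 6 days (1.80 ± 0.35, adjusted p of 0.00018). Pairs were counted on both strands together, so RNA of IGFBP7-AS1 and of IGFBP7 cannot be told apart where the genes overlap.

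IGFBP2, a binding protein expressed highly in fetal tissue, lies at chr2:217497551-217529158 on the plus strand, 7669 bases from IGFBP5. Its level was 25.3 and 17.23 CPM in control, 17.16 and 13.2 after 3 days, 15.2 and 12.01 after 6 days, and 35.9 and 40.4 in MetaICM. The MetaICM libraries were above all the others, the ICM libraries lay below control, though the first 3-day library only just, and the 3-day and 6-day libraries overlapped.

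The log2FC of IGFBP2 against control in MetaICM was 0.83 ± 0.17 (1.77-fold, adjusted p of 0.0073), and the call was lost without control replicate 2 (0.59) or without MetaICM replicate 2. Against 6 days it was 1.49 ± 0.11 and against 3 days 1.32 ± 0.13, both called in every alternative and without each single library. After 6 days of ICM the log2FC against control was -0.66 ± 0.20 with an adjusted p of 0.023. That call was lost without control replicate 1 (-0.35), without ICM 6 days replicate 2 and with all genes kept. After 3 days it was -0.49 ± 0.21 with an adjusted p of 0.097, and -0.75 and called without control replicate 2.

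The neighbours IGFBP2 and IGFBP5, transcribed from opposite strands, moved in opposite directions in MetaICM, where IGFBP2 was higher and IGFBP5 lower than in control. IGFBP2 and IGFBP7, on different chromosomes, were both highest in MetaICM, and Pearson's r of their log2 levels over the 8 libraries was 0.945 (Spearman's rho of 0.929), again over points that share 4 conditions.

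IGFBP4, which binds IGF and is the main substrate of PAPPA, was not called in any of the 6 comparisons. It lies at chr17:38599702-38613977 on the plus strand. Its level was 275 and 333.2 CPM in control, 320 and 289 after 3 days, 398 and 332.4 after 6 days, and 293 and 331.7 in MetaICM. The conditions overlapped except that both 6-day libraries were above those of 3 days and of MetaICM. The log2FC against control was -0.0021 ± 0.14 after 3 days, 0.26 ± 0.13 after 6 days and 0.04 ± 0.13 in MetaICM. Its highest and lowest means were 365 and 304 CPM, a ratio of 1.20, which was the smallest such ratio of the family.

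Between 3 and 6 days of ICM, 1 of 8 genes was called higher (IGFBP3), beside 3.53% of 15845 genes, and none lower by edgeR or DESeq2, beside 4.54%. At an unadjusted p under 0.05 in edgeR, IGF1R was lower, while IGFBP3, IGFBP4 and IGFBP5 were higher. MetaICM had 2 of 7 genes higher than 6 days (IGFBP2 and IGFBP7), beside 15.7% of 16036 genes. The main edgeR fit, with TMM, called none lower, beside 12%. IGFBP3 was at the edge of the cutoff in that fit (log2FC of -0.598). DESeq2, and edgeR with other scaling factors, called IGFBP3 lower. At an unadjusted p under 0.05 in edgeR, 4 genes were lower there (IGFBP3, IGFBP4, IGFBP5 and IGFBP6) and IGF1R was higher too. Against 3 days, MetaICM had 3 of 8 genes higher (IGFBP2, IGFBP3 and IGFBP7), beside 13.1% of 16209 genes, and 1 lower, beside 10.3%. The latter was IGF1, which the filter on low counts let through only because it was high after 3 days, so this count says nothing about the family.

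The order of conditions therefore differed from gene to gene. IGF1R ran from control through MetaICM and 3 days to 6 days, and the middle pair overlapped. IGFBP5 ran from control through 6 days to MetaICM and 3 days, and the last pair overlapped. IGFBP3 ran from 6 days and control, which overlapped, through MetaICM to 3 days. IGFBP6 ran from 3 days through 6 days and MetaICM to control with no overlap, though none of its neighbouring steps was called. IGFBP2 and IGFBP7 ran from MetaICM through control to the ICM days, which overlapped.

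As a share of the 6 binding proteins per kilobase, IGFBP5 made up 92.5% ± 0.153 (SD, n = 2) in control, 88.2% ± 1.68 after 3 days of ICM, 90.3% ± 0.726 after 6 days and 83.9% ± 1.85 in MetaICM. The other 5 genes were set against each other without it. Among them IGFBP4 held 48.9% ± 6.60 in control, 54.0% ± 0.383 after 3 days, 53.2% ± 2.98 after 6 days and 37.4% ± 0.105 in MetaICM. IGFBP7 held 19.5% ± 1.80 in control and 39.9% ± 0.0382 in MetaICM, where it was the largest share. The shares use all exon bases, but pairs could be counted on only 1257 of the 1615 bases of IGFBP7. Its share is therefore a low estimate and those of the other genes are high ones. The order of IGFBP3 and IGFBP7 in control depends on the length used. IGFBP3 went from 21.3% ± 2.52 in control to 10.5% ± 0.765 after 3 days and 19.9% ± 1.34 after 6 days, and was at 10.7% ± 0.183 in MetaICM. IGFBP6 went from 6.64% ± 1.28 in control to 15.4% ± 0.632 after 3 days, and IGFBP2 held between 2.14% and 4.93% on average.

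Another 49 genes of the pathway were listed by role, and all were in the tables. After 3 days of ICM, 46 were tested, of which 4 were called higher and 2 lower, and their median log2FC was 0.0085. After 6 days 6 of 45 were higher and 4 lower, with a median of -0.09, and in MetaICM 2 of 45 were higher and 4 lower, with a median of -0.02. The shares of all genes called are those given above for the same comparisons.

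**Figure D4:**
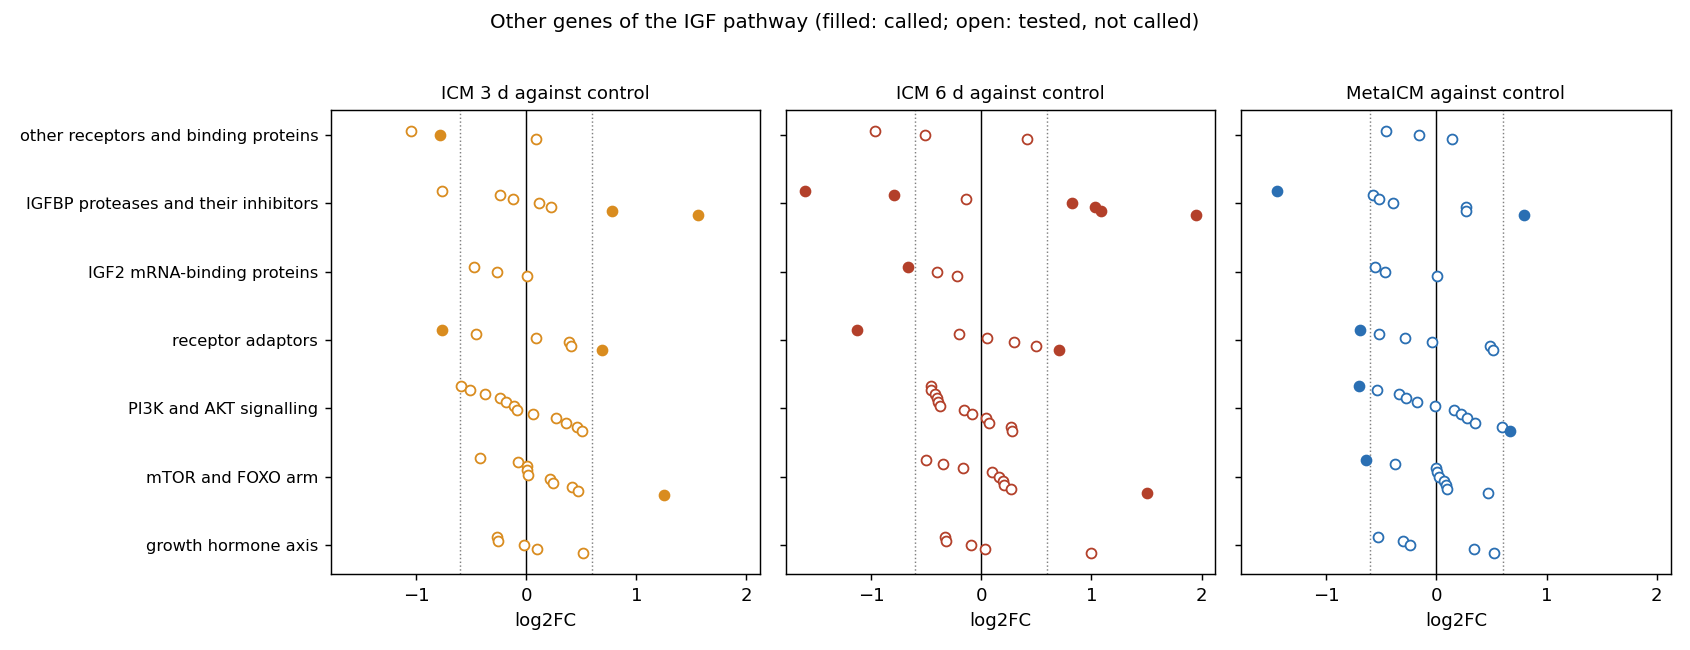
log2FC against control of the other tested genes of the IGF pathway (1 point per gene), by role, after 3 days of ICM, after 6 days of ICM and in MetaICM; filled points were called and dotted lines mark the cutoff of 0.6. The called genes after 6 days fall mostly among the proteases of binding proteins and their inhibitors, with 4 higher and 2 lower of 7. Of all genes tested after 6 days, 13.3% were called higher and 17.2% lower, and no test of the group was run.

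The proteases that cut binding proteins and the inhibitors of these proteases held most of the list's calls after 6 days, with 4 higher and 2 lower of 7. This stands beside 13.3% higher and 17.2% lower of all genes tested, and no test of the group was run. STC1 and STC2 are secreted proteins that inhibit PAPPA. STC1 was at 62.8 and 19.9 CPM in control, 129.6 and 116 after 3 days, 173 and 151 after 6 days, and 29.5 and 29.0 in MetaICM. The control libraries were far apart, but both ICM conditions were above them, with a log2FC of 1.56 ± 0.34 after 3 days (adjusted p of 0.0053) and 1.95 ± 0.36 after 6 days (adjusted p of 0.0018). STC2 rose later, with 243 and 224 CPM in control, 260.1 and 246 after 3 days and 496 and 501 after 6 days, where the log2FC was 1.09 ± 0.11 (adjusted p of 2.6e-05).

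ADAM12, a metalloprotease that cuts IGFBP3 and IGFBP5, rose by 0.78 ± 0.15 on the log2 scale after 3 days and by 1.03 ± 0.15 after 6 days. HTRA1, a serine protease with IGFBP5 among its substrates, fell by 0.79 ± 0.14 after 6 days. PAPPA2, which cuts IGFBP3 and IGFBP5, fell by 1.596 ± 0.29 after 6 days and by 1.45 ± 0.31 in MetaICM, from 59 and 52 counts in control to 22 and 26, and 36 and 25. ADAMTS1, a metalloprotease, rose by 0.82 ± 0.13 after 6 days and by 0.80 ± 0.14 in MetaICM. The proteases named here thus moved in both directions.

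Among the receptors, INSR, the insulin receptor that can pair with IGF1R, fell by 0.78 ± 0.15 after 3 days (adjusted p of 0.0021). It was the one called gene of its group, in which IGFBP1 and IGFBPL1 were not tested. Among the adaptors, GRB10, which binds IGF1R and limits its signal, fell by 0.76 ± 0.14 after 3 days and by 1.13 ± 0.13 after 6 days. IRS2, an adaptor of the receptor, rose by 0.69 ± 0.16 after 3 days. GAB1, a scaffold of receptor tyrosine kinases, fell by 0.69 ± 0.12 in MetaICM.

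Of the 12 PI3K and AKT genes tested, none was called after 3 or 6 days by edgeR or DESeq2, although 5 and 7 had an unadjusted p under 0.05 in edgeR. Of all genes tested, edgeR called 8.85% higher and 13.2% lower after 3 days, and 13.3% and 17.2% after 6 days. In MetaICM PIK3R3, a regulatory subunit of PI3K, rose by 0.66 ± 0.21 with an adjusted p of 0.040 in edgeR, near the threshold. It had 71 and 45 counts in control and 120 and 155 in MetaICM. FOXO4, a transcription factor held back by AKT, rose by 1.25 ± 0.26 after 3 days and by 1.503 ± 0.23 after 6 days, from 41 and 33 counts in control to 141 and 86, and 146 and 128. RICTOR, a part of mTOR complex 2, fell by 0.64 ± 0.11 in MetaICM. IGF2BP1, which binds the mRNA of IGF2, fell by 0.67 ± 0.13 after 6 days. None of the 5 genes of the growth hormone axis was called in the comparisons with control by edgeR or DESeq2, and 0, 2 and 3 of them had an unadjusted p under 0.05 in edgeR after 3 days, after 6 days and in MetaICM. With 5 genes, this does not set the group apart from the shares of all genes given above.

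For each of the 8 genes with enough counts, the genes with the most similar pattern were sought by Pearson's r of log2 CPM over the 8 libraries. The highest were PRUNE2, TET1 and ETV6 for IGF1R (r of 0.993, 0.991 and 0.991), DEF8, MARVELD1 and B3GALT6 for IGFBP2 (0.992, 0.992 and 0.990) and CEP97, CEP85 and NOP58 for IGFBP3 (0.969, 0.967 and 0.956). For IGFBP4, whose level hardly varied, they were IFT46, SAP30 and TMEM14B (0.951, 0.943 and 0.931). For IGFBP5 they were CENPN, LOC101927124 and TENM3 (0.984, 0.981 and 0.978), for IGFBP6 MPI, TPI1 and NECAB3 (0.991, 0.990 and 0.990), and for IGFBP7 PTTG1IP, SMS and KNDC1 (0.987, 0.984 and 0.983). IGF1, from few counts, was closest to ZMYM2, OGA and RFX3 (0.988, 0.979 and 0.979). None of these is another gene of the family. The 8 libraries form 4 conditions and 16591 genes were compared, so these values are a description and carry no p.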

How the data were processed

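Factory RNA-Seq libraries of IMR90 cells (4 conditions, 2 libraries each) were analysed from the count tables that the authors deposited. Per the labels and the file headers, paired-end reads were aligned to hg19 (GRCh37) with STAR 2.6.0c, and pairs on exons of RefSeq genes were counted with featureCounts 1.6.3 on both strands together, without chimeric pairs or pairs on several genes. These deposited values are raw counts, not normalized. The study's nascent values rest on intronic counts, which were not used here.

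Conditions were compared pairwise with edgeR 4.0.16 (R 4.3.3): TMM scaling, filterByExpr at a count minimum of 10, quasi-likelihood test, Benjamini-Hochberg adjustment over all genes tested, and calls at an adjusted p under 0.05 and an absolute log2FC over 0.6. The SE is the log2FC divided by the square root of F. Levels are TMM-scaled CPM. For pattern likeness a prior count of 2 was added and the 16591 genes kept over all 8 libraries were used. Ratios of few counts have exact conditional binomial intervals. The scripts were tested on simulated data.

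Alternatives were DESeq2 1.42.0 and its size factors, upper-quartile factors, library totals, other count filters, all 8 libraries in one fit, a replicate block, thinned counts, an adjusted p of 0.01, no log2FC cutoff and leaving out each library. Named genes were all 9 genes of the family, the pathway genes with the 4 largest called differences from control in each direction (no overlap between libraries, at least 10 counts in each library of the higher group), the 3 most alike genes, and overlapping or neighbouring genes. A gene that this rule names is not reported here. The genes and lists were chosen with earlier results of these data known. Promoter letters come from RefSeq (GRCh38.p14) and carry no coordinate of the counts.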

Additional observations from a re-analysis of the deposited data

Results flagged for a closer look

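The response to ICM differed between 3 and 6 days for 3 genes (edgeR, adjusted p under 0.05, with no log2FC cutoff). This was the direct test of 6 against 3 days, and only IGFBP3 was also over the cutoff of 0.6. The log2FC from 3 to 6 days was 1.206 for IGFBP3, 0.5763 for IGFBP5 and -0.3998 for IGF1R, with 2 libraries at each time and no overlap between them. IGFBP3 and IGFBP5 were thus nearer to control at 6 days, and IGF1R farther from it. No explanation was tested.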

How the results depend on the processing

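The tally of single log2FC values leaves out the adjusted p under 0.01 and the missing log2FC cutoff, which change only the threshold. It also leaves out IGF2, which the main fit did not test. It covers the other genes and alternatives wherever both fits tested the gene. Of these values, 542 kept their direction and side of the threshold, 17 lost a call, 18 gained one and 21 changed sign.

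With an adjusted p under 0.01, or with all genes kept, 1 gene rather than 2 was lower at 6 days. With no log2FC cutoff, 2 genes were higher and 1 lower from 3 to 6 days, 4 were lower in MetaICM than at 6 days and 2 were lower in MetaICM than at 3 days. In MetaICM against control, library totals or all genes kept left 1 gene lower. In MetaICM against 6 days, 1 gene was lower, against 0: IGFBP3 with DESeq2 size factors, upper-quartile factors, library totals, DESeq2, the replicate block or thinned counts, and IGF1, which was then tested, with all genes kept or all 8 libraries in one fit. In MetaICM against 3 days, 2 genes were lower with library totals, and 0 with 10 counts in every library or with thinned counts, since IGF1 was then not tested. With all genes kept, IGF2 was tested too and called higher in MetaICM than at 6 days and at 3 days, from few counts. In one fit of all 8 libraries, IGF1 was tested against control and called lower in MetaICM. With DESeq2, 1 pathway gene was higher in MetaICM. As a share of counts, IGFBP5 made up 97.36% in control, 96% after 3 days, 96.55% after 6 days and 94.41% in MetaICM. For the other changes the cause was not tested.

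Without 1 library at a time, the genes called ranged as follows. Those lower at 6 days went from 1 to 2, and those higher from 3 to 6 days from 1 to 2. In MetaICM against control, those higher went from 1 to 3 and those lower from 1 to 2. Those lower in MetaICM went from 1 to 2 against 6 days (IGFBP3, IGF1 or both) and from 1 to 2 against 3 days (IGF1, with IGFBP6 where there were 2).

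Over all genes, counts of calls moved by over 1.5 times in a few cases. With no log2FC cutoff, genes higher at 6 days went from 2121 to 3266; those higher and lower went from 559 and 719 to 1531 and 1530 between the days, and in MetaICM from 1179 and 1430 to 2069 and 2225 against control, from 2518 and 1929 to 4407 and 4169 against 6 days and from 2121 and 1677 to 3659 and 3298 against 3 days. With an adjusted p under 0.01, MetaICM against control had 664 higher and 868 lower. Without ICM 3 days replicate 1, 851 rather than 1389 genes were higher at 3 days. In MetaICM against control, 2116 were higher without control replicate 1, 807 lower without MetaICM replicate 1, and 469 higher and 580 lower without MetaICM replicate 2.

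Changes of sign were all in differences that were not called. IGFBP4 at 3 days turned to 0.071 with library totals, 0.0078 with all genes kept, 0.0020 in one fit of 8 libraries, 0.0032 with the replicate block and 0.011 with thinned counts. In MetaICM against 3 days, library totals turned IGFBP4 to -0.013 and IGFBP5 to -0.017. Without 1 library at a time, IGFBP4 at 3 days ranged from -0.13 to 0.12. At 6 days IGF1 ranged from -0.57 to 0.90 and IGFBP3 from -0.081 to 0.15. From 3 to 6 days IGFBP2 ranged from -0.35 to 0.051 and IGFBP7 from -0.14 to 0.061. In MetaICM against control IGFBP4 ranged from -0.091 to 0.18, and against 3 days IGFBP4 from -0.055 to 0.13, IGFBP5 from -0.045 to 0.12 and IGF1R from -0.053 to 0.17.

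Libraries with the same number deviated together weakly at most, so the number was not taken as a pairing. The r lay between -0.111 and 0.172 over 16591 genes, highest for control and 3 days. The block moved no count of calls by more than 1.5 times except the 1 gene named above. At 3 days it lowered the edgeR adjusted p from 0.097 to 0.0040 for IGFBP2 and from 0.099 to 0.0077 for IGFBP7. Both stayed short of the log2FC cutoff. A crossed pairing for MetaICM against 3 days, added after seeing the data, called 2182 genes higher and 1774 lower, against 2121 and 1677 without a block. With 2 libraries per condition, and with counts of 0 to 20 per library for IGF1 and IGF2, small differences could not be resolved.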
